A study of Mus musculus with 18 samples.

Results

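The guide RNA sgNAT10 was compared with wild type in TC1 cells grown in culture and in tumours formed by TC1 cells in mice. The comparison described here is the difference between these 2 genotype effects. It used 12 of the 18 libraries of the series, 3 in each of 4 groups, namely wild-type TC1 cells, sgNAT10 TC1 cells, wild-type TC1 tumours and sgNAT10 TC1 tumours. TC1 is a mouse line that the labels name a fibrosarcoma line. For the tumours, cells were placed under the skin of mice, and the tissue was taken on day 8. No label says that the tumours grew from the same cells as the cultured libraries, so setting and cell population cannot be told apart. No label gives an age, strain or sex of the mice, names a clone, or says that libraries of a group came from separate cultures or animals, so p-values reflect only how these libraries vary, which may be technical. Tumour libraries hold RNA of host cells besides that of TC1 cells. In such bulk samples, fewer cells of a type and less RNA per cell cannot be told apart. For each gene the interaction was the sgNAT10 minus wild-type difference in tumours minus the same difference in culture, on a log2 scale.

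NAT10 is an enzyme that acetylates cytidine in RNA, including ribosomal and messenger RNA, and it is located largely in the nucleolus. Type I interferon genes are switched on when cells sense foreign or misplaced nucleic acids, and many of the genes that interferon then induces have promoters that carry an interferon-stimulated response element. Cells in culture have constant nutrients and no immune cells around them, whereas tumour cells in a mouse meet interferon made by host cells, low oxygen and a connective tissue matrix. The question posed by the comparison is which genotype differences of the cultured cells were also present in the animal.

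Nat10, the gene the guide is designed against, lies at chr2:103721256-103761270 in mm10. It was at 13.9, 14.1 and 15.9 FPKM in wild-type and 14.2, 12.4 and 11.7 in sgNAT10 cultures, and at 14.8, 16.2 and 15.3 in wild-type and 12.3, 16.1 and 16.3 in sgNAT10 tumours. The groups lay close together in both settings, and neither difference passed the test, with -0.22 ± 0.11 (adjusted p = 0.161) in culture and -0.22 ± 0.15 (adjusted p = 0.336) in tumours (log2 ± SE), though limma voom with quality weights called Nat10 lower in culture. Values not otherwise named are edgeR quasi-likelihood estimates with Benjamini-Hochberg adjustment over all genes tested, here and below, and a gene was called at an adjusted p under 0.05. Libraries held 51661298 to 78501790 estimated counts. Among the labelled cell type's own genes, the 22 collagens summed to 529 to 607 FPKM in wild-type cultures, and Vim was at 1072, 1343 and 1143 FPKM there. Epithelial genes summed to 60.5 to 234 FPKM in the same cultures and to 11.7 to 75.3 FPKM in wild-type tumours.

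Some libraries stood apart from others of their group. Summed over 52 type I interferon-stimulated genes, the wild-type cultures were at 875, 349.5 and 354 FPKM and the sgNAT10 cultures at 1377, 3293 and 3486, so wild type 1 was the highest of its group and sgNAT10 1 the lowest of its own. Liver transcripts summed to 614 to 1171 FPKM in wild-type and 856 to 1140 FPKM in sgNAT10 cultures. In tumours the same sum was 1.39, 47.5 and 196 FPKM in wild type and 455, 506 and 478 FPKM in sgNAT10, with wild-type tumour 3 nearest to the sgNAT10 tumours. Red blood cell markers summed to 549, 319.8 and 169.6 FPKM in wild-type and 74.9, 79.1 and 128 FPKM in sgNAT10 tumours, and skeletal muscle markers to 35.6, 27.8 and 36.1 and 158, 121 and 109 FPKM. The part of these differences in the results was not tested.

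Genes that were higher in sgNAT10 libraries in both settings included interferon-stimulated genes. Promoters of 3 are shown here because they hold a match to a core sequence of the element named above. Among the 5 genes with the largest shared rise, Trim12a, Trim30d, Igtp, Ifit3 and Trim30a, all 5 had at least 1 match, on either strand, to the core of that element searched here, GAAA followed after any 2 bases by GAAA, in the RefSeq window of 250 bases before to 50 bases after the start. Of all 32851 such windows 3.44% held a match, a share per window, whereas a gene can have more than 1 window, as Trim30a has 2. The 250 bases before the start follow for 3 of them, in the direction of transcription and on GRCm38.p6, with each match in capitals. Ifit3 is at chr19:34583279-34583528 on the plus strand, Trim30d at chr7:104507850-104508099 on the minus strand and Igtp at chr11:58199306-58199555 on the plus strand. The printed strand carries the reverse complement, TTTC after TTTC, in Ifit3, which has 2 matches, and in Trim30d, which has 1, and the core itself in Igtp, which has 1.
Ifit3: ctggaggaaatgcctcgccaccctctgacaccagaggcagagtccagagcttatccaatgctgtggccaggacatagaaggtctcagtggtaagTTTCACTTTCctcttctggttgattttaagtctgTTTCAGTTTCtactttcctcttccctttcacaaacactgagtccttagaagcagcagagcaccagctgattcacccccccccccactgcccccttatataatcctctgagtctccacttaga
Trim30d: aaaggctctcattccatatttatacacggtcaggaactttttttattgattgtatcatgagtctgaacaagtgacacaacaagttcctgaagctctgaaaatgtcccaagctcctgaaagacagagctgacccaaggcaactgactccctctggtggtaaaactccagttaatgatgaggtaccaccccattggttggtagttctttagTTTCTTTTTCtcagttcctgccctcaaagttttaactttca
Igtp: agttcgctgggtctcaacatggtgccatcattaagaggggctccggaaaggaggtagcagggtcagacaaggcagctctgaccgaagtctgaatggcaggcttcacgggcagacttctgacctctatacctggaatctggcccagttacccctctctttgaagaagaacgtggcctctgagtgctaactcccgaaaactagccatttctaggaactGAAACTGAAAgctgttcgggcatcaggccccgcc
A match is a run of letters, not a site shown to bind a factor. The share of matches among all genes of the classes was not compared, because only 67.8% of the tested genes had a window under the same symbol.

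In culture 7126 of 18823 genes were called (37.9%), of which 2991 were higher (15.9%) and 4135 lower (22%) in sgNAT10 libraries. In tumours 3343 of 19244 were called (17.4%), 1473 higher (7.65%) and 1870 lower (9.72%), so 44.1% of the tumour calls were higher, and 55.2% when libraries were scaled by total count alone. The interaction was called for 5833 of 20706 genes (28.2%), being higher in tumours than in culture for 2712 (13.1%) and lower for 3121 (15.1%). The classes below cover the 17377 genes tested in all 3 fits. Among them 2872 were higher (16.5%) and 4015 lower (23.1%) in culture, 1260 higher (7.25%) and 1842 lower (10.6%) in tumours, and 2437 higher (14%) and 3039 lower (17.5%) in the interaction. Counts of list members below are to be read beside these shares.

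A genotype difference seen in culture was usually not seen in tumours. Of the 2872 genes higher in sgNAT10 cultures, 216 were also higher in sgNAT10 tumours (7.52%), 1421 were not called in tumours and had a called interaction in the other direction (49.5%), and 409 were lower in tumours (14.2%). Of the 4015 genes lower in culture, 576 were lower in tumours as well (14.3%), 1515 were lost by the same definition (37.7%) and 258 were higher in tumours (6.43%). These are called kept, lost and reversed below, as names of call patterns and not of changes shown within the same cell population. The remaining 826 higher and 1666 lower genes of the cultures were not called in tumours and had no called interaction, so they are unresolved. The kept share of the higher genes, 7.52%, was near the 7.25% of all 17377 genes that were higher in tumours, and the kept share of the lower genes, 14.3%, compares with 10.6% of all genes. A further 387 genes were higher and 657 lower in tumours with no call in culture and a called interaction, and these are called gained. The FPKM of the genotypes did not overlap for 52.4% of the 17377 genes in culture and for 40.8% in tumours. Genes named below as the leading ones of a class had to be free of overlap in each setting where the class needs a call. For them such separation is no further result.

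**Figure D1:**
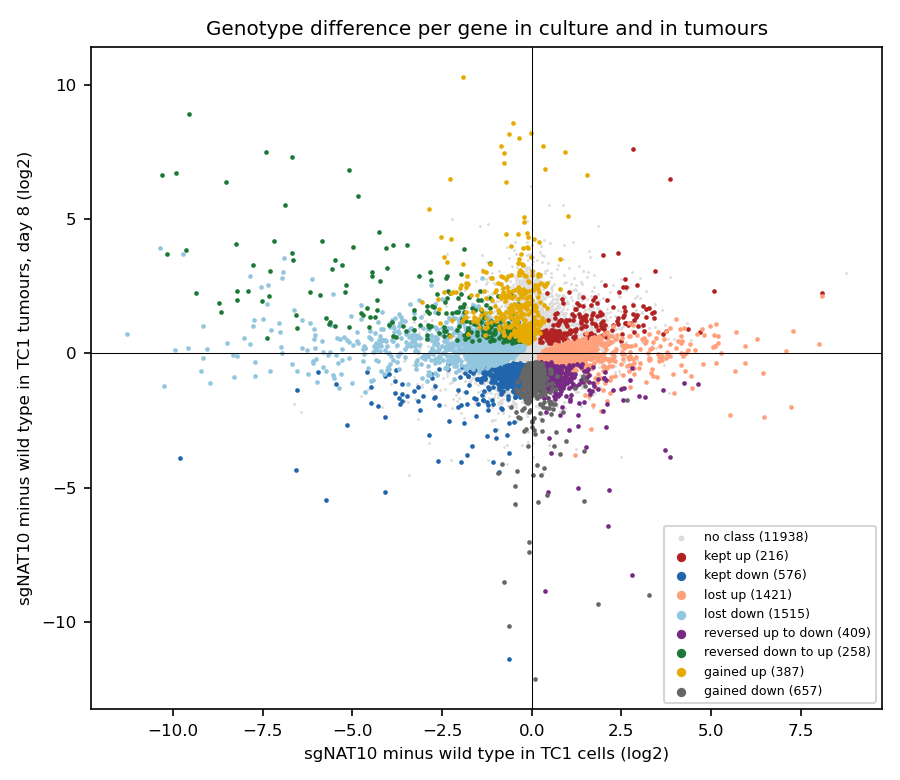
Each point is 1 of the 17377 genes tested in all 3 fits, with the log2 difference between sgNAT10 and wild type in TC1 cells on the x axis and in TC1 tumours on the y axis, coloured by class. Lost genes lie along the horizontal axis, kept genes (216 up, 576 down) at the upper right and lower left, and reversed genes (409 and 258) at the lower right and upper left.

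The size of the difference in culture did not mark genes that kept it. Among 6887 genes called in culture, 52.4% had the same sign in tumours, and Pearson's r between the differences was -0.14 across genes, which are not independent replicates. For the 2095 genes that differed at least 2-fold in culture the same sign was seen in 49.3%, and 250 were kept, 1197 lost and 247 reversed. At 8-fold or more, 41.2% of 434 genes had the same sign, with 46 kept, 282 lost and 75 reversed. The median absolute log2 difference of these 434 genes was 4.25 in culture and 0.81 in tumours. Genes that were over 4-fold higher in tumours than in cultures at the mean level were kept in 18.6% of 263 called cases, and those over 4-fold lower in 9.06% of 331. The count of kept genes rests on how many genes are called in tumours. Without sgNAT10 tumour 2 the tumour fit called 555 genes, and 27 were kept up and 89 kept down. Without wild-type tumour 3 it called 4612, and 334 were kept up and 793 kept down. The lost genes numbered between 1078 and 1596 (up) and between 1063 and 1716 (down) with any 1 of the 12 libraries left out. A lost gene must have no call in tumours, so kept and reversed genes can become lost when fewer are called there. Sulf2, Slit2 and Bgn, reversed in the main fit, did so without sgNAT10 tumour 2. The narrower range of the lost counts is thus partly built in.

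Cell division genes that rose in sgNAT10 cultures fell in sgNAT10 tumours. Of 34 genes of G1/S and DNA replication, 15 rose and 5 fell in sgNAT10 cultures, none rose and 30 fell in sgNAT10 tumours, and the interaction was lower for 29. Of 30 genes of G2/M and mitosis, 13 rose and 2 fell in culture, all 30 fell in tumours, and the interaction was lower for all 30. Their median log2 differences were 0.08 and 0.21 in culture and -1.0 and -1.03 in tumours, beside -0.09 and -0.02 over all 17377 genes. In all, 15 genes of the first list and 13 of the second were reversed from higher to lower, and 11 and 15 were lower in tumours only, with a called interaction. The reversed genes of the first list included Ccne1 and Ccne2, cyclins of the G1/S transition, E2f1, Cdc6, Cdc45, Rrm1 and Rrm2. Of the first list, Cdt1, E2f2, Gins2 and Pole were lower in both settings.

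Plk1, a kinase that drives entry into and progress through mitosis, is at chr7:122159439-122169873. Plk1 was at 41.5, 43.5 and 45.4 FPKM in wild-type and 72.5, 59.5 and 62.3 in sgNAT10 cultures, and at 41.4, 48 and 43.1 in wild-type and 21.9, 18.5 and 17.1 in sgNAT10 tumours. The 3 sgNAT10 cultures were above the 3 wild-type cultures, and the 3 sgNAT10 tumours were below the 3 wild-type tumours. Plk1 differed by 0.53 ± 0.10 (adjusted p = 0.00467) in culture and by -1.32 ± 0.12 (adjusted p = 0.00289) in tumours, and its interaction was -1.92 ± 0.16 (adjusted p = 1.67e-05). Mcm4, a subunit of the replicative helicase at chr16:15623897-15637400, was at 47.2, 50.8 and 54.5 FPKM in wild-type and 96.8, 94.8 and 94.4 in sgNAT10 cultures, and at 45.3, 52.9 and 47.4 in wild-type and 20.5, 21.6 and 22 in sgNAT10 tumours. Again both pairs of groups were apart, in opposite directions, with wild-type cultures and wild-type tumours at similar FPKM. For Mcm4 the differences were 0.86 ± 0.07 (adjusted p = 2.17e-04) and -1.30 ± 0.11 (adjusted p = 0.00226), and the interaction was -2.23 ± 0.13 (adjusted p = 2.21e-06).

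Kif11, a motor protein of the spindle, rose by 0.67 in culture and differed by -0.98 ± 0.13 (adjusted p = 0.00679) in tumours. Ttk, a kinase of the spindle checkpoint, rose by 0.49 in culture and changed by -1.12 ± 0.12 (adjusted p = 0.00383) in tumours. Tk1, a thymidine kinase made in S phase, had 0.79 ± 0.08 (adjusted p = 4.51e-04) in culture and -0.89 ± 0.12 (adjusted p = 0.00610) in tumours. E2f8, an E2F family repressor of the cell cycle, was at 15, 17.7 and 16.2 FPKM in wild-type and 30.1, 29.6 and 28.9 in sgNAT10 cultures, and at 11.1, 16 and 14.1 in wild-type and 5.96, 5.84 and 5.38 in sgNAT10 tumours. Its interaction of -2.21 ± 0.14 (adjusted p = 3.15e-06) was close to that of Mcm4. Plk1, Mcm4, Kif11, Ttk, Tk1 and E2f8 were each reversed from higher to lower under all 23 alternatives tried, leaving out each library among them. They were the 3 genes of each list with the smallest interaction p, so this stability is partly built in. Here and below, a left-out culture leaves the tumour fit unchanged, and a left-out tumour the culture fit. The lists depend more on the libraries. Without sgNAT10 tumour 2 the first list had 17 and the second 24 genes lower in tumours. In culture, 20 genes of the second list were higher without sgNAT10 culture 1 and 7 without wild-type culture 2.

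Uhrf1 and Hells, which take part in DNA methylation, were reversed in the same direction, whereas Gadd45a of the same list was a lost fall. Gadd45a had -3.43 ± 0.34 (adjusted p = 4.3e-04) in culture, 0.60 ± 0.22 (adjusted p = 0.102) in tumours and an interaction of 3.96 ± 0.44 (adjusted p = 9.8e-05). Uhrf1, which brings DNMT1 to newly made DNA, was at 58.5, 59.9 and 64.7 FPKM in wild-type and 78.7, 80.8 and 79.6 in sgNAT10 cultures, and at 51.6, 60.5 and 59.6 in wild-type and 23.4, 23.7 and 20.8 in sgNAT10 tumours. The groups were apart in both settings, more widely in tumours than in culture, with 0.35 ± 0.06 (adjusted p = 0.00400) and -1.48 ± 0.10 (adjusted p = 0.00195). Hells, a chromatin remodeller needed for DNA methylation, had 0.30 ± 0.07 (adjusted p = 0.0175) in culture and -1.11 ± 0.15 (adjusted p = 0.00645) in tumours, and its culture rise was not called without wild-type culture 2. Over the 19 genes of DNA methylation, 4 were higher and 6 lower in culture, 1 higher and 5 lower in tumours, and the interaction was higher for 3 and lower for 5. Among all 17377 genes, 16.5% were higher and 23.1% lower in culture, and 7.25% higher and 10.6% lower in tumours. Without sgNAT10 tumour 2, 2 of the 19 were lower in tumours.

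**Figure D2:**
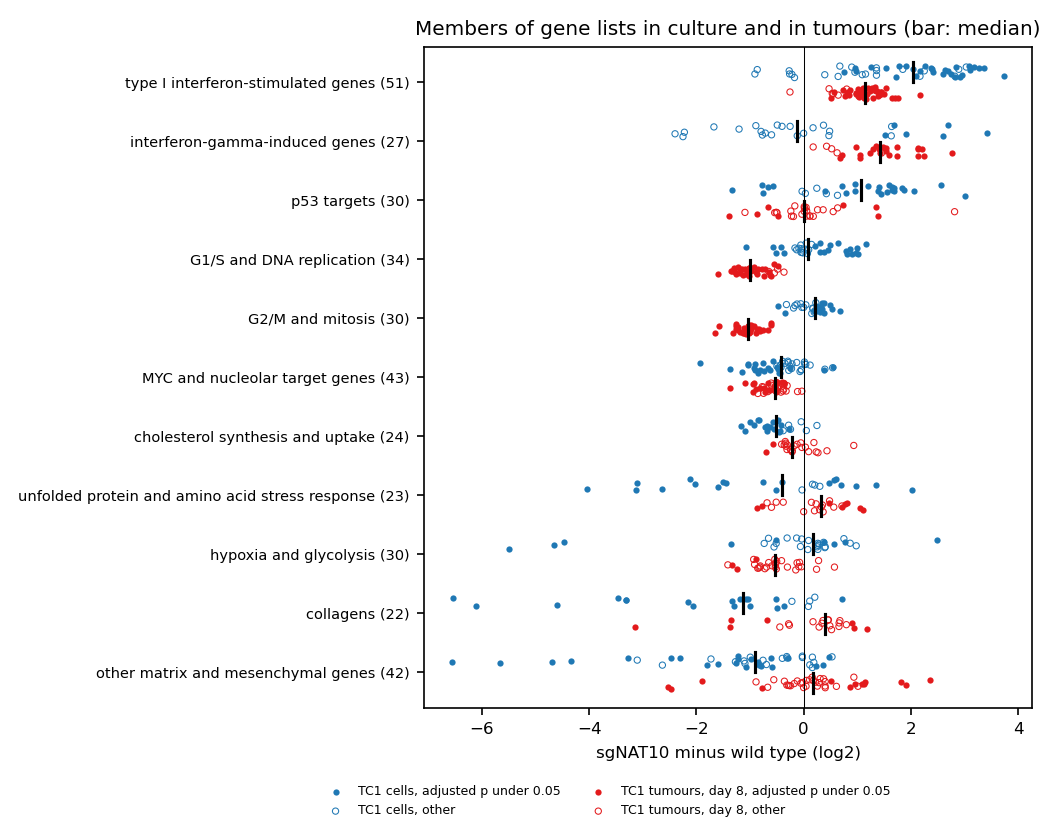
Members of 11 gene lists (number of genes tested in parentheses) by their log2 difference between sgNAT10 and wild type in TC1 cells (blue) and day 8 tumours (red), filled where the adjusted p was under 0.05, with bars at the list medians. The G1/S and G2/M lists have medians of 0.08 and 0.21 in culture and -1.0 and -1.03 in tumours, and the collagens move from -1.13 to 0.41.

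Myc, Cdk2 and Dnmt1 are named in the title of the study. Cdk2, a kinase of S phase entry at chr10:128697939-128705031, was at 57.2, 79.9 and 78 FPKM in wild-type and 31.8, 37 and 35.6 in sgNAT10 cultures, and at 19.9, 21.1 and 22.1 in wild-type and 15.3, 19.2 and 16.9 in sgNAT10 tumours. The groups did not overlap in either setting, but the cultures lay far apart and the tumours close together. Cdk2 differed by -1.10 ± 0.13 (adjusted p = 9.07e-04) in culture and by -0.41 ± 0.11 (adjusted p = 0.0451) in tumours, and the interaction of 0.62 ± 0.18 (adjusted p = 0.0234) was called, so the fall was smaller in tumours. With RLE size factors, with total-count scaling, or without any 1 of the tumour libraries other than wild type 3, the tumour fall of Cdk2 was no longer called, and its interaction was not called without wild-type culture 2 or 3 or sgNAT10 culture 1. Dnmt1, the maintenance DNA methyltransferase, was at 93.7, 91 and 88.1 FPKM in wild-type and 73.7, 73.3 and 72.6 in sgNAT10 cultures, and at 18.1, 30.1 and 24.8 in wild-type and 18.8, 18.1 and 14.6 in sgNAT10 tumours. It fell in both settings, with -0.36 ± 0.05 (adjusted p = 0.00231) and -0.60 ± 0.17 (adjusted p = 0.0489), and the interaction of -0.31 ± 0.19 (adjusted p = 0.243) was not called. Dnmt1 was not called in tumours with RLE size factors, nor without wild-type tumour 2 or 3 or any 1 sgNAT10 tumour, and not in culture without sgNAT10 culture 2 or 3. Myc, the transcription factor, was at 243, 209 and 235 FPKM in wild-type and 156, 191 and 197 in sgNAT10 cultures, and at 61.2, 61.5 and 48.6 in wild-type and 52.2, 52.3 and 66.2 in sgNAT10 tumours. Its fall was called in culture at -0.43 ± 0.09 (adjusted p = 0.0103) and not in tumours at -0.17 ± 0.18 (adjusted p = 0.539), and the interaction was not called (adjusted p = 0.570). The culture call of Myc was lost without wild-type culture 1 or 3 or sgNAT10 culture 2 or 3.

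Many targets of MYC serve the nucleolus, where ribosomes are made. Of 43 MYC and nucleolar target genes, 2 rose and 20 fell in culture, none rose and 20 fell in tumours, 8 were lower in both, and the interaction was higher for 1 and lower for 8. The median difference was -0.42 in culture and -0.53 in tumours. Slc7a5, a transporter of large neutral amino acids, was at 130.1, 113 and 119 FPKM in wild-type and 38.8, 29.6 and 28.8 in sgNAT10 cultures, and at 69.3, 80.7 and 65.5 in wild-type and 56.7, 57.7 and 52.2 in sgNAT10 tumours. Its sgNAT10 libraries were below wild type in both settings, with -1.94 ± 0.14 (adjusted p = 1.12e-04) in culture, -0.50 ± 0.13 (adjusted p = 0.0434) in tumours and an interaction of 1.37 ± 0.20 (adjusted p = 4.82e-04). That tumour call was lost without any 1 of the tumour libraries other than wild type 3. Slc7a5 was the 1 gene of the 43 with a higher interaction. Next by interaction p were Odc1 and Ldha, both reversed from higher to lower in the main fit. Odc1 differed by 0.56 in culture and -1.10 in tumours, with an interaction of -1.73 (adjusted p = 5.72e-04). Ldha had 0.38, -0.89 and an interaction of -1.335 (adjusted p = 0.00457). Without sgNAT10 tumour 2 only 1 of the 43 genes was lower in tumours, without wild-type tumour 3 there were 30, and in culture there were 9 without sgNAT10 2 and 31 without sgNAT10 1.

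Type I interferon-stimulated genes were higher in sgNAT10 libraries in both settings. Of 51 tested, 29 rose and none fell in culture, 45 rose and none fell in tumours, and 23 rose in both. The median difference was 2.05 in culture and 1.14 in tumours, and the interaction was lower for 8 and higher for 1. Leaving out wild-type and sgNAT10 culture 1 together, which was chosen after seeing the data, gave 46 higher in culture, with a median of 2.89, and 38 with a lower interaction, with a median interaction of -1.75. Without sgNAT10 tumour 2, 6 of the 51 were higher in tumours at a median of 1.14, without wild-type tumour 2 there were 11, and without sgNAT10 tumour 1 or 3 there were 15 or 18. In culture 15 or 16 were higher without wild type 2 or 3 or without sgNAT10 2 or 3. The white cell marker Ptprc was at 7.81, 11.5 and 24.1 FPKM in wild-type and 25.7, 28.3 and 24.2 FPKM in sgNAT10 tumours, and its part in the interferon genes of the tumours was not tested.

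Ifit3, an interferon-induced protein that binds IFIT1 and limits viral RNA, was at 12.3, 3.50 and 3.55 FPKM in wild-type and 14.9, 95.9 and 95.5 in sgNAT10 cultures, and at 100.0, 121 and 195 in wild-type and 426, 456 and 376 in sgNAT10 tumours. Wild-type culture 1 and sgNAT10 culture 1 lay next to each other, the other cultures were far apart, and the tumours of the genotypes did not overlap. Ifit3 differed by 3.36 ± 0.82 (adjusted p = 0.0173) in culture and 1.51 ± 0.21 (adjusted p = 0.00732) in tumours, and the interaction was not called at -1.92 ± 0.87 (adjusted p = 0.125), but it was -3.26 (adjusted p = 0.000103) without culture 1 of both genotypes, the lowest of its alternatives, whose adjusted p-values ran up to 0.31. Igtp, an immunity-related GTPase, was at 7.14, 3.74 and 1.65 FPKM in wild-type and 9.44, 19.2 and 19.6 in sgNAT10 cultures, and at 102, 155 and 208 in wild-type and 582, 457 and 389 in sgNAT10 tumours. The sgNAT10 tumours were all above the wild-type tumours, as were the cultures. Igtp had 1.91 ± 0.52 (adjusted p = 0.0261) and 1.53 ± 0.23 (adjusted p = 0.00897). Trim30a, which restrains NF-kB signalling in mice, had 2.83 ± 0.82 (adjusted p = 0.0328) and 1.45 ± 0.26 (adjusted p = 0.0137). Trim30d had 1.71 ± 0.53 (adjusted p = 0.0408) and 2.0 ± 0.29 (adjusted p = 0.00784), and Trim12a 2.10 ± 0.54 (adjusted p = 0.0203) and 1.98 ± 0.22 (adjusted p = 0.00419). Members of the Trim, Ifit and Gbp families have near-identical relatives, so the assignment of reads between them is uncertain. The culture calls of Ifit3, Igtp, Trim30a, Trim30d and Trim12a were lost without wild type 2 or sgNAT10 2, among others. Each of the 5 genes lost its class without at least 3 of the 12 libraries in turn.

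A few interferon-stimulated genes rose in culture and not in tumours. Ifih1, the cytosolic RNA sensor MDA5, was at 3.4, 1.98 and 2.18 FPKM in wild-type and 12.5, 25.7 and 26.8 in sgNAT10 cultures, and at 3.11, 5.13 and 9.63 in wild-type and 8.71, 9.58 and 8.87 in sgNAT10 tumours. Cultures of the genotypes were apart, whereas the tumours overlapped through wild type 3, with 3.08 ± 0.35 (adjusted p = 7.02e-04), 0.53 ± 0.31 (adjusted p = 0.264) and an interaction of -2.61 ± 0.51 (adjusted p = 0.00300). Without wild-type tumour 3 the tumour rise of Ifih1 was called. Ifi27, an interferon-induced protein of mitochondria, had 2.18 ± 0.18 (adjusted p = 2.01e-04) in culture, -0.25 ± 0.17 (adjusted p = 0.323) in tumours and an interaction of -2.50 ± 0.27 (adjusted p = 8.70e-05). Bst2, Irf9 and Lgals3bp were lost in the same way. Rtp4, which is needed for the traffic of some receptors, rose by 3.75 in culture and by 0.85 in tumours, with a smaller rise in tumours by the interaction test (adjusted p = 0.00813). The tumour rise of Rtp4 was not called without wild-type tumour 2 or any 1 sgNAT10 tumour.

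Genes induced by interferon-gamma, a cytokine made by lymphocytes, were called higher more often in tumours than in culture, but their interaction depends on the filter on low counts. Of 27 tested, 6 rose and none fell in culture and 22 rose and none fell in tumours, and the interaction was higher for 11 and lower for 1. The median difference was -0.12 in culture and 1.43 in tumours, and the median interaction was 0.91. With 1 CPM required in all 3 libraries of a group, 18 were tested, at a median of 0.55 in culture and a median interaction of 0.14, and the interaction was higher for 5. By limma-trend with a pseudocount of 1, 16 were tested, at medians of 0.71 in culture and 0.21 in the interaction. The 6 that rose in both were Cd274, which encodes PD-L1, Gbp3, Gbp7, Igtp, Irgm1 and Irgm2. Gbp4, a guanylate-binding protein, was at 0.750, 0.796 and 0.0678 FPKM in wild-type and 0.221, 0.0793 and 0.0422 in sgNAT10 cultures, and at 18.3, 44.8 and 70.9 in wild-type and 257, 217 and 200.3 in sgNAT10 tumours. Cultures were near 0 in both genotypes and the sgNAT10 tumours were all far above the wild-type tumours. Gbp4 had 2.25 ± 0.39 (adjusted p = 0.0125) in tumours and an interaction of 4.44 ± 1.01 (adjusted p = 0.00758), though its culture difference of -2.25 rests on levels under 1 FPKM. Psmb9, a subunit of the immunoproteasome, was at 12.1, 10.7 and 9.20 FPKM in wild-type and 3.94, 7.40 and 7.72 in sgNAT10 cultures, and at 54.5, 45.9 and 63.8 in wild-type and 101, 85.8 and 87.6 in sgNAT10 tumours. Its tumour difference was 0.67 ± 0.14 (adjusted p = 0.0212) and its interaction 1.37 ± 0.32 (adjusted p = 0.00835). The culture difference of Psmb9, -0.77 ± 0.27 (adjusted p = 0.0663), missed the call though the groups were apart. Psmb9 was reversed from lower to higher by DESeq2, limma-trend with either pseudocount, voom with quality weights and a single fit over 12 libraries. Without sgNAT10 tumour 2 or wild-type tumour 2, 5 of the 27 rose in tumours, without sgNAT10 tumour 1 there were 7 and without sgNAT10 tumour 3 there were 14. The tumour calls of Gbp4 and Psmb9 were lost without wild-type tumour 2 or sgNAT10 tumour 1 or 2, and that of Psmb9 also without sgNAT10 tumour 3. In culture 2 of the 27 rose without wild type 2 or without sgNAT10 2 or 3. With culture 1 of both genotypes left out, 11 rose in culture and the interaction was higher for 4.

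Nlrc5, the transactivator of MHC class I genes, was not called in culture at -0.33 ± 0.19 (adjusted p = 0.210) and rose in tumours by 1.01 ± 0.20 (adjusted p = 0.0194), with an interaction of 1.28 ± 0.29 (adjusted p = 0.00798). Its tumour rise was not called without wild-type tumour 2 or any 1 sgNAT10 tumour. Of 24 genes of MHC class I antigen presentation, 4 rose and 3 fell in culture, 6 rose and none fell in tumours, and the interaction was higher for 5 and lower for 1. Over all 17377 genes, 16.5% rose and 23.1% fell in culture, and 7.25% rose and 10.6% fell in tumours. The culture counts of the MHC class I list were near or below these shares. Without wild-type tumour 2 or any 1 sgNAT10 tumour none of the 24 was called in tumours, and without wild-type tumour 3 there were 14 higher. Inflammatory cytokines and NF-kB targets numbered 22, of which 3 rose and 3 fell in culture and 4 rose in tumours, with 2 higher interactions. Without wild-type culture 1, 7 of the 22 rose in culture and 5 had a lower interaction, whereas none rose in tumours without wild-type tumour 2 or sgNAT10 tumour 2 or 3, 1 without sgNAT10 tumour 1 and 8 without wild-type tumour 1. T cell markers, 14 in all, summed to 35.6, 27.8 and 60.8 FPKM in wild-type and 48.1, 72.1 and 57 FPKM in sgNAT10 tumours, MHC class II genes to 426, 352 and 807 and 971, 707 and 596 FPKM, and macrophage markers to 1453, 1387 and 1939 and 1611, 1452 and 1407 FPKM. Only wild-type tumour 3 overlapped the sgNAT10 tumours in T cell markers, and macrophage markers overlapped throughout. Markers of cytotoxic cells summed to 62.3, 62.4 and 141 FPKM in wild-type and 164, 182 and 168 FPKM in sgNAT10 tumours. Dendritic cell markers summed to 8.0, 8.92 and 15.2 FPKM in wild-type and 20.6, 22.8 and 19.3 FPKM in sgNAT10 tumours, and the tumours of the genotypes did not overlap in either sum. Cultures had such transcripts too. There the cytotoxic markers summed to 126.9, 28.1 and 38.7 FPKM in wild type and 149.7, 377.5 and 407 FPKM in sgNAT10. The dendritic markers summed to 9.58, 9.18 and 11.85 FPKM in wild-type and 3.89, 5.30 and 4.64 FPKM in sgNAT10 cultures. The part of immune cells in the tumour rises, and of TC1 cells in these marker sums, was not tested.

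**Figure D3:**
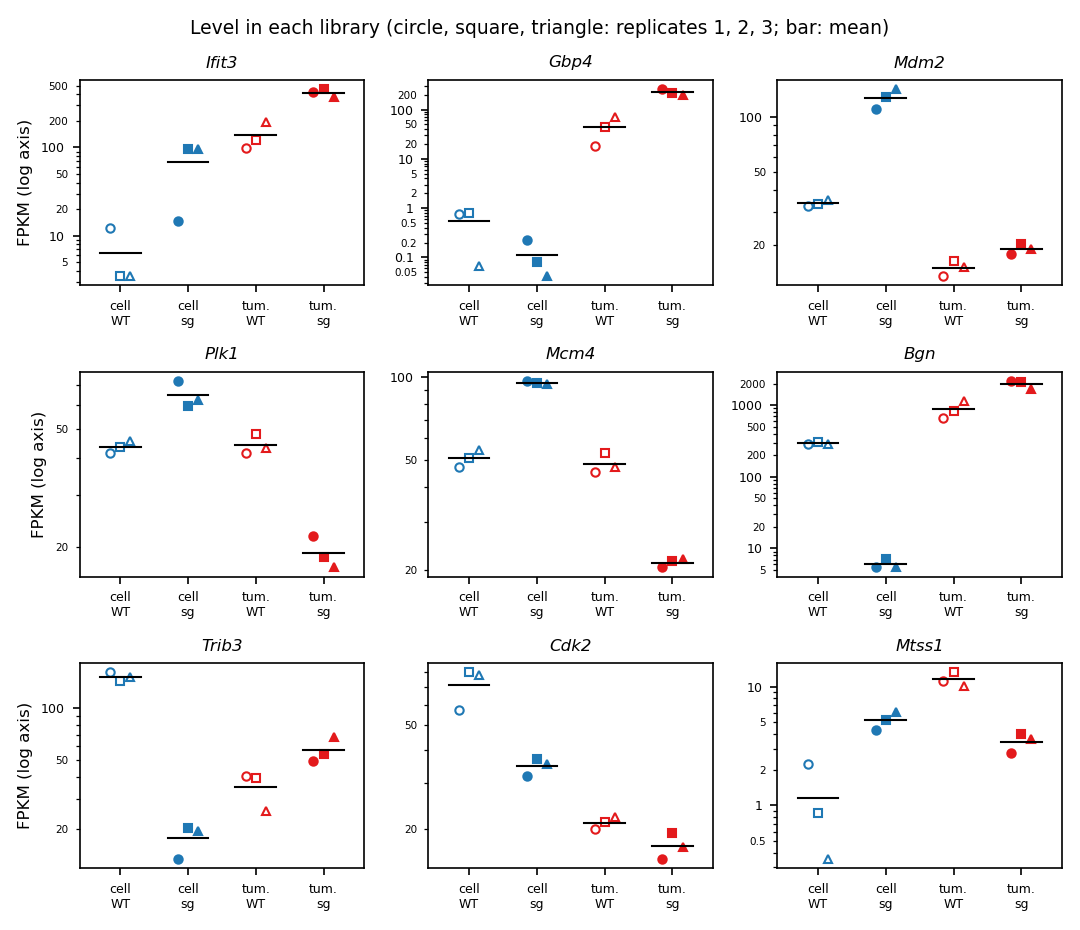
FPKM in each library on a log axis for 9 genes, with open symbols for wild type (WT) and filled symbols for sgNAT10 (sg), in cultures (blue) and tumours (red), and bars at the group means. Ifit3 is higher in sgNAT10 libraries in both settings, Plk1, Mcm4 and Mtss1 switch direction, Mdm2 and Trib3 are far apart in culture and closer in tumours, and Bgn is lower in sgNAT10 cultures and higher in sgNAT10 tumours.

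Most targets of p53 rose in sgNAT10 cultures and few did in tumours. Of 30 tested, 20 rose and 5 fell in culture, 3 rose and 4 fell in tumours, and the interaction was lower for 18 and higher for 4. The median was 1.08 in culture and 0.01 in tumours. The 12 lost rises were Aen, Bax, Btg2, Ccng1, Cdkn1a, Ei24, Fas, Gdf15, Mdm2, Pidd1, Pmaip1 and Polk, which include the cell cycle inhibitor p21 (Cdkn1a) and the cell death genes Bax and Pmaip1. Mdm2, which encodes the ubiquitin ligase of p53 and lies at chr10:117688875-117710758, was at 32.4, 33.5 and 35 FPKM in wild-type and 110.0, 128 and 142 in sgNAT10 cultures, and at 13.4, 16.3 and 15.1 in wild-type and 17.8, 20.1 and 19 in sgNAT10 tumours. All sgNAT10 cultures were well above wild type, and in tumours the groups did not overlap but were close, with 1.83 ± 0.09 (adjusted p = 2.90e-05), 0.18 ± 0.10 (adjusted p = 0.230) and an interaction of -1.71 ± 0.13 (adjusted p = 7.31e-06). Phlda3, a repressor of AKT signalling, was at 38.4, 41.4 and 42.9 FPKM in wild-type and 111, 112 and 108 in sgNAT10 cultures, and at 24.7, 24.4 and 23.6 in wild-type and 18.5, 19.5 and 18.5 in sgNAT10 tumours. It rose by 1.39 ± 0.07 (adjusted p = 2.81e-05) in culture and changed by -0.49 ± 0.12 (adjusted p = 0.0365) in tumours. Gtse1, a p53 target that is also made in G2 and M phase, had 1.68 ± 0.11 (adjusted p = 9.03e-05) and -1.39 ± 0.14 (adjusted p = 0.00344). Eda2r, Ercc5 and Trp53inp1 rose in both settings. The count of rises in culture stayed between 19 and 23 and that of lower interactions between 15 and 19 under every alternative tried. The tumour fall of Phlda3 was not called without wild-type tumour 2 or any 1 sgNAT10 tumour, and without sgNAT10 tumour 2 none of the 30 rose in tumours.

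Many genes of the extracellular matrix fell in sgNAT10 cultures, and for most of these the difference was higher in tumours. Of 22 collagens, 1 rose and 17 fell in culture, 3 rose and 4 fell in tumours, and the interaction was higher for 13 and lower for 1. Their median was -1.13 in culture and 0.41 in tumours. Of 42 other matrix and mesenchymal genes, 3 rose and 20 fell in culture, 9 rose and 4 fell in tumours, and the interaction was higher for 19 and lower for 2. Markers of fibroblasts, which share genes with these lists, summed to 259, 170.4 and 192 FPKM in wild-type and 29.1, 34.5 and 35.4 FPKM in sgNAT10 cultures, and to 419.9, 429 and 527 and 523, 463 and 517 FPKM in the tumours, where the genotypes overlapped. Pericyte markers summed to 39.3, 53.5 and 64.8 FPKM in wild-type and 89.2, 89.8 and 73.1 FPKM in sgNAT10 tumours, which did not overlap. The part of fibroblasts and pericytes in the interaction was not tested.

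Bgn, a small proteoglycan of the matrix, was at 291, 308 and 288 FPKM in wild-type and 5.43, 7.14 and 5.46 in sgNAT10 cultures, and at 669, 825 and 1126 in wild-type and 2182, 2102 and 1701 in sgNAT10 tumours. The sgNAT10 cultures had almost none of the wild-type level, and the sgNAT10 tumours were all above the wild-type tumours. Bgn had -5.65 ± 0.13 (adjusted p = 2.82e-06) in culture, 1.09 ± 0.20 (adjusted p = 0.0145) in tumours and an interaction of 6.68 ± 0.24 (adjusted p = 1.20e-07). Thbs2, a matricellular protein, was at 17.9, 21 and 18.3 FPKM in wild-type and 0.138, 0.262 and 0.232 in sgNAT10 cultures, and at 2.69, 2.54 and 3.29 in wild-type and 6.93, 5.23 and 5.76 in sgNAT10 tumours. Its direction also switched, with -6.56 ± 0.21 (adjusted p = 8.87e-06) and 0.96 ± 0.16 (adjusted p = 0.0105), and it was reversed under all 23 alternatives. Col1a2, a chain of type I collagen, was at 84.5, 114 and 92.2 FPKM in wild-type and 1.08, 1.90 and 1.38 in sgNAT10 cultures, and at 65.1, 62.4 and 111 in wild-type and 85.8, 52.9 and 71.2 in sgNAT10 tumours. Cultures were apart, tumours overlapped, and the interaction was 5.76 ± 0.38 (adjusted p = 3.88e-06). Col5a2, a chain of type V collagen, was at 31.3, 38.1 and 34.7 FPKM in wild-type and 0.348, 0.423 and 0.376 in sgNAT10 cultures, and at 26.6, 32.2 and 58.5 in wild-type and 18.5, 13.2 and 16.4 in sgNAT10 tumours. It fell in both settings, with -6.53 ± 0.12 (adjusted p = 1.81e-06) and -1.37 ± 0.26 (adjusted p = 0.0163), less in tumours by an interaction of 5.10 ± 0.32 (adjusted p = 3.02e-06). The tumour rise of Bgn was lost without wild-type tumour 2 or sgNAT10 tumour 1 or 2, and the tumour fall of Col5a2 without any 1 sgNAT10 tumour. Of the 42 other matrix genes 3 rose in tumours without wild-type tumour 2, 4 without sgNAT10 tumour 1 and 5 without sgNAT10 tumour 2 or 3, and none of the 22 collagens rose without sgNAT10 tumour 2.

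Most genes of sterol synthesis fell in culture and few did in tumours. Of 24 genes of cholesterol synthesis and uptake, 18 fell and none rose in culture, 2 fell in tumours, and the interaction was higher for 5 and lower for 2. The median was -0.52 in culture and -0.21 in tumours. Lss, the lanosterol synthase, was at 22.3, 28.4 and 28.4 FPKM in wild-type and 12.3, 13.1 and 11.9 in sgNAT10 cultures, and at 4.74, 7.56 and 9.86 in wild-type and 9.75, 11.6 and 8.32 in sgNAT10 tumours. Cultures were apart, tumours overlapped, and Lss had -1.17 ± 0.13 (adjusted p = 6.51e-04), 0.27 ± 0.23 (adjusted p = 0.433) and an interaction of 1.37 ± 0.28 (adjusted p = 0.00438). Mvd, an enzyme of the mevalonate pathway, had -1.09 ± 0.14 (adjusted p = 0.00119), -0.03 ± 0.21 (adjusted p = 0.927) and an interaction of 0.99 ± 0.27 (adjusted p = 0.0190), which was not called without sgNAT10 culture 2 or 3, wild-type tumour 2 or sgNAT10 tumour 1 or 2. Without sgNAT10 culture 2 or 3, 11 of the 24 fell in culture, and the higher interactions numbered 1 or 2, as they did without wild-type culture 2 or 3 or sgNAT10 tumour 2.

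Several stress genes under ATF4, the transcription factor of the amino acid response, fell in culture and not in tumours, whereas 3 genes of the endoplasmic reticulum rose in both. Of 23 genes of the unfolded protein response and of amino acid stress, 7 rose and 12 fell in culture, 6 rose and 2 fell in tumours, and the interaction was higher for 10 and lower for 3. Trib3, a pseudokinase induced by ATF4, was at 160.0, 143 and 150.1 FPKM in wild-type and 13.5, 20.3 and 19.7 in sgNAT10 cultures, and at 40.3, 39.6 and 25.3 in wild-type and 49.7, 54.3 and 67.5 in sgNAT10 tumours. The sgNAT10 cultures were far below wild type, and the sgNAT10 tumours were above, though not by a called difference, with -3.12 ± 0.15 (adjusted p = 3.09e-05), 0.56 ± 0.25 (adjusted p = 0.153) and an interaction of 3.62 ± 0.33 (adjusted p = 2.68e-05). Ddit3, which encodes the stress transcription factor CHOP, was at 72.5, 61.9 and 63.2 FPKM in wild-type and 17.5, 23.8 and 26.8 in sgNAT10 cultures, and at 35.5, 36.5 and 35.8 in wild-type and 68.6, 89.8 and 91.6 in sgNAT10 tumours. Its direction switched from -1.60 ± 0.16 (adjusted p = 4.10e-04) to 1.11 ± 0.15 (adjusted p = 0.00627), and it did so under all 23 alternatives. Asns, Atf4, Chac1, Ppp1r15a, Pycr1, Slc7a11 and Vldlr were lost falls too. Phgdh and Psat1, enzymes of serine synthesis, fell in both settings, and Hspa5, Pdia4 and Sdf2l1, which fold proteins in the endoplasmic reticulum, rose in both. When wild-type tumour 1 or 2 or any 1 sgNAT10 tumour was left out, 1 of the 23 rose in tumours.

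Hypoxia and glycolysis genes were mixed. Of 30 tested identifiers, which come from 29 symbols, 4 were higher and 5 lower in culture, 3 lower in tumours, and the interaction was higher for 4 and lower for 8. Car9, a carbonic anhydrase induced by low oxygen, was at 89.9, 99.1 and 78 FPKM in wild-type and 1.91, 2.10 and 2.26 in sgNAT10 cultures, and at 21.8, 17 and 10.6 in wild-type and 10.1, 9.66 and 8.74 in sgNAT10 tumours. The cultures were apart, and the tumour groups differed by -0.93 ± 0.30 (adjusted p = 0.0711) with an interaction of 4.50 ± 0.37 (adjusted p = 1.39e-05). Adm, the peptide adrenomedullin, had -4.66 ± 0.19 (adjusted p = 1.76e-05), 0.28 ± 0.37 (adjusted p = 0.619) and an interaction of 4.87 ± 0.43 (adjusted p = 2.13e-05). Slc16a3, which exports lactate, fell in both settings, with log2 differences of -4.48 and -1.23, less in tumours by an interaction of 3.17 ± 0.40 (adjusted p = 2.22e-04). Without wild-type tumour 3 the fall of Car9 in tumours was called and 18 of the 30 were lower there, whereas without wild-type tumour 2 or any 1 sgNAT10 tumour none was called, Slc16a3 among them. In culture 18 of the 30 were higher without sgNAT10 culture 1 and 2 without wild-type culture 2 or sgNAT10 culture 2. Of 26 genes of oxidative phosphorylation, 5 rose and 3 fell in culture and 4 fell in tumours, with 1 higher and 8 lower interactions, and without any 1 sgNAT10 tumour none of the 26 was called in tumours, and 1 without wild-type tumour 2. Among all 17377 genes, 16.5% rose and 23.1% fell in culture, and 10.6% fell in tumours.

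Among the falls shared by both settings, the 5 largest by the smaller of the 2 differences were those of Cth, Gpnmb, Galnt18, Msln and Dnph1. Gpnmb, a membrane glycoprotein of melanocytes and macrophages, was at 53.5, 15.1 and 20.9 FPKM in wild-type and 1.15, 1.78 and 1.27 in sgNAT10 cultures, and at 23.6, 26.8 and 14.5 in wild-type and 6.90, 6.66 and 6.48 in sgNAT10 tumours. The sgNAT10 groups were below wild type in both settings, with -4.48 ± 0.53 (adjusted p = 8.34e-04), -1.83 ± 0.25 (adjusted p = 0.00690) and a smaller fall in tumours by an interaction of 2.58 ± 0.59 (adjusted p = 0.00735). Msln, the surface protein mesothelin, had -3.48 ± 0.25 (adjusted p = 1.17e-04) and -1.57 ± 0.17 (adjusted p = 0.00385), with an interaction of 1.85 ± 0.31 (adjusted p = 0.00122). Galnt18, an enzyme of mucin-type glycosylation, fell more in tumours, with -1.67 ± 0.21 (adjusted p = 0.00113), -3.44 ± 0.24 (adjusted p = 0.00195) and an interaction of -1.84 ± 0.31 (adjusted p = 0.00140). Cth, which makes cysteine from cystathionine, had -2.60 ± 0.07 (adjusted p = 4.85e-06) and -1.91 ± 0.38 (adjusted p = 0.0180). Dnph1, a hydrolase of modified nucleotides, had -1.50 ± 0.13 (adjusted p = 2.84e-04) and -1.90 ± 0.33 (adjusted p = 0.0132). Gpnmb, Galnt18 and Msln stayed lower in both settings under all 23 alternatives, whereas the tumour fall of Cth was lost without wild-type tumour 2 or any 1 sgNAT10 tumour and that of Dnph1 without sgNAT10 tumour 1 or 2.

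The lost rises with the largest interactions were those of Acsl6, Zbtb7c, Tro, Plagl1 and Tusc1. Plagl1, an imprinted zinc finger transcription factor, was at 0.0487, 0.0603 and 0.168 FPKM in wild-type and 2.69, 7.0 and 7.33 in sgNAT10 cultures, and at 0.497, 0.331 and 0.304 in wild-type and 0.392, 0.194 and 0.350 in sgNAT10 tumours. It was close to absent in wild-type cultures and high in every sgNAT10 culture, and the tumours of both genotypes were low and overlapped. Plagl1 had 5.94 ± 0.53 (adjusted p = 2.83e-04), -0.35 ± 0.39 (adjusted p = 0.560) and an interaction of -6.35 ± 0.68 (adjusted p = 7.57e-05). Zbtb7c, a zinc finger protein, was at 0.0322, 0.0296 and 0.103 FPKM in wild-type and 4.70, 9.23 and 8.82 in sgNAT10 cultures, and at 0.0786, 0.0836 and 0.129 in wild-type and 0.0594, 0.0285 and 0.0985 in sgNAT10 tumours. Tro, the adhesion protein trophinin, had 7.28 ± 0.79 (adjusted p = 5.90e-04) and an interaction of -6.50 ± 1.22 (adjusted p = 0.00242). It was at 0, 0.0278 and 0.118 FPKM in wild-type cultures. In tumours Tro was at 0.018, 0.014 and 0.018 FPKM in wild type and 0.045, 0.030 and 0.023 in sgNAT10. Acsl6, a long-chain fatty acid CoA ligase, had 6.47 ± 0.36 (adjusted p = 4.50e-05) and an interaction of -8.90 ± 0.84 (adjusted p = 3.42e-05), and Tusc1, a gene with 1 exon that is lost in some tumours, 5.14 ± 0.45 (adjusted p = 2.63e-04) and -5.56 ± 0.55 (adjusted p = 4.68e-05). In tumours Acsl6 was at 0.122, 0.299 and 0.182 FPKM in wild type and 0.0769, 0.0198 and 0.0132 in sgNAT10. That difference of -2.37 ± 0.705 (adjusted p = 0.0576) missed the call. Acsl6 was called lower in tumours, and so reversed, by DESeq2, by voom with quality weights, in a single fit over 12 libraries and without sgNAT10 tumour 1. Wild-type cultures and all tumours were low in each of these lost rises, so the sizes of their differences are uncertain. Acsl6, Zbtb7c, Tro and Tusc1 were not tested in all fits with the 1 CPM filter or with limma-trend.

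The lost falls with the largest interactions were those of Car6, Ptx3, Cdh26, Il1rl1 and Crabp1. Crabp1, which binds retinoic acid in the cytoplasm, was at 484, 578 and 571 FPKM in wild-type and 3.48, 2.55 and 1.88 in sgNAT10 cultures, and at 141, 108 and 76.6 in wild-type and 56.9, 80.2 and 62 in sgNAT10 tumours. Wild-type cultures were high, sgNAT10 cultures had almost none, and the tumours lay between them and overlapped, with -7.73 ± 0.25 (adjusted p = 8.37e-06), -0.86 ± 0.28 (adjusted p = 0.0727) and an interaction of 6.80 ± 0.43 (adjusted p = 3.02e-06). Il1rl1, the receptor of IL-33, was at 154, 41.6 and 71.7 FPKM in wild-type and 0.844, 0.744 and 0.429 in sgNAT10 cultures, and at 243, 314 and 209 in wild-type and 319.5, 302 and 376 in sgNAT10 tumours. Its fall in culture was -7.0 ± 0.54 (adjusted p = 1.66e-04) and its interaction 7.18 ± 0.57 (adjusted p = 1.09e-05). Ptx3, a soluble pattern recognition protein, was at 27.3, 0.439 and 0.861 FPKM in wild-type and 0.0350, 0.202 and 0.0838 in sgNAT10 cultures. Wild-type culture 1 held most of it, and without any 1 sgNAT10 culture the culture fall of Ptx3 was no longer called. Car6, a secreted carbonic anhydrase, was at 17.7, 12.6 and 20.9 FPKM in wild-type and 0.0981, 0.165 and 0.213 in sgNAT10 cultures, and at 5.68, 4.99 and 2.30 in wild-type and 8.64, 14.6 and 20.1 in sgNAT10 tumours. The sgNAT10 tumours were all above wild type, but the difference of 1.60 ± 0.46 (adjusted p = 0.0531) missed the call, and its interaction was 8.16 ± 0.69 (adjusted p = 1.69e-05). The tumour rise of Car6 was called with total-count scaling, the 1 CPM filter, DESeq2, limma-trend with either pseudocount, voom and the single fit, which makes the gene reversed there. Cdh26, a cadherin, had an interaction of 7.24 ± 0.73 (adjusted p = 4.85e-05). In tumours Crabp1 was called lower and Cdh26 higher without wild type 3, and Car6 and Ptx3 were called higher without wild type 1.

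Among genes with at least 5 FPKM in the higher group of each setting, those higher in culture and lower in tumours by the widest margin were Prkar1b, Mtss1, Mgat3, Sulf2 and Nrn1. Prkar1b, a regulatory subunit of protein kinase A, was at 1.15, 0.372 and 0.168 FPKM in wild-type and 7.68, 8.27 and 8.41 in sgNAT10 cultures, and at 5.42, 4.99 and 6.41 in wild-type and 0.488, 0.463 and 0.404 in sgNAT10 tumours. The genotypes were apart in both settings, as the rule for leading genes required. Prkar1b had 3.84 ± 0.65 (adjusted p = 0.00367), -3.86 ± 0.21 (adjusted p = 0.00115) and an interaction of -7.78 ± 0.76 (adjusted p = 4.28e-05). Mtss1, a membrane and actin binding protein, was at 2.22, 0.857 and 0.353 FPKM in wild-type and 4.34, 5.21 and 6.16 in sgNAT10 cultures, and at 11.2, 13.2 and 10.1 in wild-type and 2.74, 3.96 and 3.59 in sgNAT10 tumours. Mtss1 had 2.09 ± 0.59 (adjusted p = 0.0298) and -1.88 ± 0.19 (adjusted p = 0.00344). Mgat3, which adds the bisecting sugar to N-glycans, had 3.15 ± 0.57 (adjusted p = 0.00517) and -1.62 ± 0.20 (adjusted p = 0.00547), Sulf2, a heparan sulfatase, 3.0 ± 0.12 (adjusted p = 1.67e-05) and -1.58 ± 0.32 (adjusted p = 0.0197), and Nrn1, the neuronal protein neuritin, 1.61 ± 0.20 (adjusted p = 0.00103) and -1.50 ± 0.24 (adjusted p = 0.0103). Phlda2, an imprinted gene that limits growth of the placenta, was at 2.59, 0.804 and 1.59 FPKM in wild-type and 8.39, 7.09 and 6.56 in sgNAT10 cultures, and at 0.826, 0.847 and 0.419 in wild-type and 0, 0 and 0.103 in sgNAT10 tumours. It rose in culture by 2.16 ± 0.40 (adjusted p = 0.00579), and its tumour fold is not given, since both tumour groups were under 1 FPKM with 2 sgNAT10 tumours at 0. Cd276, the checkpoint ligand B7-H3, was at 7.57, 6.27 and 7.43 FPKM in wild-type and 15.6, 17.7 and 17.3 in sgNAT10 cultures, and at 9.38, 9.39 and 9.79 in wild-type and 4.99, 4.55 and 4.29 in sgNAT10 tumours. Its differences were 1.23 ± 0.09 (adjusted p = 1.37e-04) and -1.20 ± 0.13 (adjusted p = 0.00407). Prkar1b, Mgat3 and Cd276 were reversed under all 23 alternatives, and Nrn1 whenever 1 library was left out. The culture rise of Mtss1 was lost without wild type 2 or sgNAT10 2 or 3, the tumour fall of Sulf2 without wild type 2 or sgNAT10 2 or 3, and that of Phlda2 without wild type 2 or sgNAT10 1 or 2.

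In the opposite direction, lower in culture and higher in tumours, and with the same limit of 5 FPKM in each setting, Capn6, Insl6, Pcdh18, Slit2 and Gas1 led. Slit2, a guidance cue that binds Robo receptors, was at 6.74, 5.45 and 6.19 FPKM in wild-type and 0.392, 0.452 and 0.467 in sgNAT10 cultures, and at 1.51, 3.86 and 2.53 in wild-type and 6.11, 6.52 and 6.68 in sgNAT10 tumours. The sgNAT10 cultures were below and the sgNAT10 tumours above their wild-type groups, with -3.90 ± 0.13 (adjusted p = 9.08e-06), 1.16 ± 0.27 (adjusted p = 0.0293) and an interaction of 4.99 ± 0.34 (adjusted p = 4.14e-06). Capn6, a calpain family member without protease activity, had -2.28 ± 0.15 (adjusted p = 7.79e-05) and 2.25 ± 0.32 (adjusted p = 0.00742). Gas1, a membrane protein that binds Hedgehog, had -1.20 ± 0.16 (adjusted p = 0.00132) and 1.12 ± 0.19 (adjusted p = 0.0125), Pcdh18, a protocadherin, -1.73 ± 0.13 (adjusted p = 1.64e-04) and 1.16 ± 0.28 (adjusted p = 0.0320), and Insl6, an insulin-like peptide, -1.46 ± 0.24 (adjusted p = 0.00314) and 1.25 ± 0.18 (adjusted p = 0.00794). Dppa4, a gene of pluripotent and germ cells that DNA methylation silences, was at 1.58, 0.527 and 0.444 FPKM in wild-type and 0, 0 and 0 in sgNAT10 cultures, and at 0.138, 0.160 and 0.0872 in wild-type and 0.929, 0.641 and 0.550 in sgNAT10 tumours. It was listed at 0 in all sgNAT10 cultures, so its culture fold is not given, and the sgNAT10 tumours were all above the wild-type tumours, by 2.24 ± 0.46 (adjusted p = 0.0202). All 3 fits called Dppa4, at levels under 2 FPKM. In tumours the rises of Slit2, Pcdh18 and Dppa4 were lost without any 1 sgNAT10 tumour, that of Gas1 without sgNAT10 1 or 2, that of Slit2 also without wild type 3 and those of Pcdh18 and Dppa4 also without wild type 2. Of 28 germline genes that DNA methylation silences 6 passed the filter on low counts.

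Gained rises, called in tumours and not in culture, were led by Bmp5, Aldh1a1, Tnnt3 and Atp2a1. Aldh1a1, which makes retinoic acid, was at 9.93, 15.7 and 4.89 FPKM in wild-type and 10.2, 10.5 and 6.28 in sgNAT10 cultures, and at 0.126, 1.08 and 1.68 in wild-type and 29.8, 34.8 and 24.1 in sgNAT10 tumours. The cultures of the genotypes overlapped, and the sgNAT10 tumours were far above the wild-type tumours, with 4.91 ± 0.68 (adjusted p = 0.00742) and an interaction of 5.05 ± 0.84 (adjusted p = 0.00123). Bmp5, a bone morphogenetic protein, was at 0.251, 0.364 and 0.0295 FPKM in wild-type and 0.185, 0.0909 and 0.107 in sgNAT10 cultures, and at 0, 0.0873 and 0.107 in wild-type and 9.49, 9.89 and 7.58 in sgNAT10 tumours. It had 7.08 ± 0.79 (adjusted p = 0.00418) and an interaction of 7.77 ± 1.25 (adjusted p = 9.99e-04). Tnnt3, the troponin T of fast skeletal muscle, and Atp2a1, the calcium pump of the same muscle, had 1.92 ± 0.26 (adjusted p = 0.00697) and 2.02 ± 0.29 (adjusted p = 0.00781) in tumours, and interactions of 4.90 ± 0.94 (adjusted p = 0.00270) and 4.57 ± 1.26 (adjusted p = 0.0192). The culture difference of Tnnt3, -3.05 ± 1.02 (adjusted p = 0.0542), missed the call though the groups were apart at levels under 1.2 FPKM, and the gene was reversed from lower to higher by DESeq2, by voom with quality weights and in a single fit over 12 libraries. The interaction of Atp2a1 was not called without wild-type culture 1. These genes moved with the skeletal muscle markers given above, which include Tnnt3 and of which 4 of 8 tested rose in tumours, and the part of muscle in the result was not tested. Among 2051 genes under 0.5 FPKM in all 6 cultures, 242 were higher and 34 lower in sgNAT10 tumours, and 80 were gained rises and 12 gained falls. Over all 17377 genes, 7.25% were higher and 10.6% lower in tumours, and 2.23% were gained rises and 3.78% gained falls. Levels this low make a call in culture hard, so the choice of these genes itself bears on the gained counts. Of 10 endothelial markers 8 rose in tumours and 1 in culture, and their sum was 54.2, 52.9 and 70.2 FPKM in wild-type and 114, 103 and 101 FPKM in sgNAT10 tumours, so the groups did not overlap.

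Gained falls were led by Prss22, Nme4, Hspa1b and Crabp2. Crabp2, which carries retinoic acid to its nuclear receptors, was at 0.645, 0.290 and 0.183 FPKM in wild-type and 0.231, 0.417 and 0.526 in sgNAT10 cultures, and at 24.4, 13.9 and 22.4 in wild-type and 2.92, 3.20 and 3.89 in sgNAT10 tumours. The cultures overlapped and the sgNAT10 tumours were all below the wild-type tumours, with -2.73 ± 0.29 (adjusted p = 0.00385) and an interaction of -2.82 ± 0.59 (adjusted p = 0.00470). Nme4, a nucleoside diphosphate kinase of mitochondria, was at 19.6, 19 and 21.2 FPKM in wild-type and 15.8, 20.2 and 21.6 in sgNAT10 cultures, and at 6.89, 5.68 and 4.91 in wild-type and 0.362, 0.467 and 0.893 in sgNAT10 tumours. It had -3.46 ± 0.43 (adjusted p = 0.00564) and an interaction of -3.42 ± 0.43 (adjusted p = 2.21e-04). Hspa1b, an inducible HSP70 with a near-identical copy beside it, had -2.18 ± 0.19 (adjusted p = 0.00227), and Prss22, a serine protease, -2.90 ± 0.51 (adjusted p = 0.0134). The tumour fall of Prss22 was lost without any 1 sgNAT10 tumour, its culture difference was called higher without sgNAT10 culture 1, and that of Hspa1b without wild-type culture 1. Of 25 retinoic acid and Hox genes, 5 rose and 3 fell in culture, 2 rose and 4 fell in tumours, and the interaction was higher for 3 and lower for 8. The shares of all 17377 genes were 16.5% and 23.1% in culture and 7.25% and 10.6% in tumours.

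The other lists showed no common direction. For comparison, 16.5% of all 17377 genes rose and 23.1% fell in culture, and 7.25% rose and 10.6% fell in tumours. Of 26 autosomal imprinted genes, 7 rose and 3 fell in culture, 4 rose and 3 fell in tumours, and the interaction was higher for 5 and lower for 7. Among 13 checkpoint ligands and receptors, 5 rose and 2 fell in culture, 2 rose and 3 fell in tumours, and the interaction was higher for 2 and lower for 5. None of 18 epithelial genes was called in any of the 3 fits by edgeR, where 1 had an unadjusted p under 0.05 in culture and none in the other fits, and DESeq2 called 1 higher in culture and 1 lower in tumours. This count depends on the libraries, since 7 of the 18 were lower in culture without wild-type culture 3 and 8 were lower in tumours without wild-type tumour 1. Of 9 genes of the sex chromosomes 1 rose in culture and 2 fell in tumours, with 2 lower interactions. Xist, the RNA that silences an X chromosome, was at 17.9, 23.1 and 25 FPKM in wild-type and 4.27, 5.84 and 5.26 FPKM in sgNAT10 tumours, with -2.18 ± 0.15 (adjusted p = 0.00195), and its part in the tumour results was not tested. Of the cultures, wild type 1 was at 2.23 FPKM of Xist and the others were under 0.1.

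A run of neighbouring genes on chromosome 5 rose together in culture and not in tumours. The run, chosen after its values were seen, is the set of 15 tested genes that overlap chr5:8046078-9161776, from the start of Sri to the end of Dmtf1. Of these, 12 were at least 8-fold higher in sgNAT10 cultures, with log2 differences from 3.55 to 5.10 among them, 10 of the 12 were lost rises, none of the 15 was higher in tumours and 1 was lower. Sri, which encodes the calcium-binding protein sorcin, was at 32.3, 32 and 35.9 FPKM in wild-type and 602, 639.9 and 662 in sgNAT10 cultures, and at 38.4, 38.1 and 40.8 in wild-type and 38.5, 48.8 and 49.3 in sgNAT10 tumours. The sgNAT10 cultures were the only high group, and Sri had 4.22 ± 0.08 (adjusted p = 1.81e-06), -0.09 ± 0.12 (adjusted p = 0.638) and an interaction of -4.37 ± 0.16 (adjusted p = 1.20e-07). Abcb1b, a drug efflux pump, was at 17.9, 17.2 and 22.5 FPKM in wild-type and 292, 224 and 221 in sgNAT10 cultures, and at 15.4, 21.5 and 16.5 in wild-type and 16.4, 15.6 and 17.3 in sgNAT10 tumours. Dbf4, the activator of the replication kinase CDC7, was at 41.3, 40.2 and 50.6 FPKM in wild-type and 838, 881 and 887 in sgNAT10 cultures, and at 51.2, 57 and 45.3 in wild-type and 25.1, 26.3 and 27.8 in sgNAT10 tumours. Dbf4 was the gene that fell in tumours, with 4.25 ± 0.11 (adjusted p = 3.45e-06), -1.11 ± 0.14 (adjusted p = 0.00617) and an interaction of -5.43 ± 0.20 (adjusted p = 1.20e-07). Pvt1, the long non-coding RNA beside Myc on chromosome 15, was at 15.1, 14.1 and 16.9 FPKM in wild-type and 286, 316 and 325 in sgNAT10 cultures, and at 13.8, 12.4 and 9.85 and 8.01, 11.5 and 11.6 FPKM in the tumours. Sri, Dbf4 and Abcb1b kept their classes under all 23 alternatives.

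Whole chromosomes differed between settings as well. For the 8877 genes expressed at a mean of at least 5 FPKM in both settings, the median log2 difference was -0.05 in culture and -0.16 in tumours. Genes of chromosome 16 had a median of 0.50 in culture (281 genes) and -0.07 in tumours, and those of chromosome 12 had 0.21 (309 genes) and -0.02. Of the 517 tested genes of chromosome 16, 45.1% were higher in sgNAT10 cultures and 9.09% in sgNAT10 tumours, beside 16.5% and 7.25% of all 17377 genes. Lost rises made up 139 of the 517 (26.9%), beside 1421 of all 17377. Chromosome 17 was low in both settings, at -0.37 and -0.43 (462 genes), and held 109 of the 576 falls that were kept. Those 109 were 12.5% of its 873 tested genes, whereas the 576 came from 17377. Genes of chromosomes 14 and 15 were near the whole in culture, at 0.04 and -0.04, and low in tumours, at -0.44 and -0.35. These are medians of these libraries, given as a description and with no test.

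**Figure D4:**
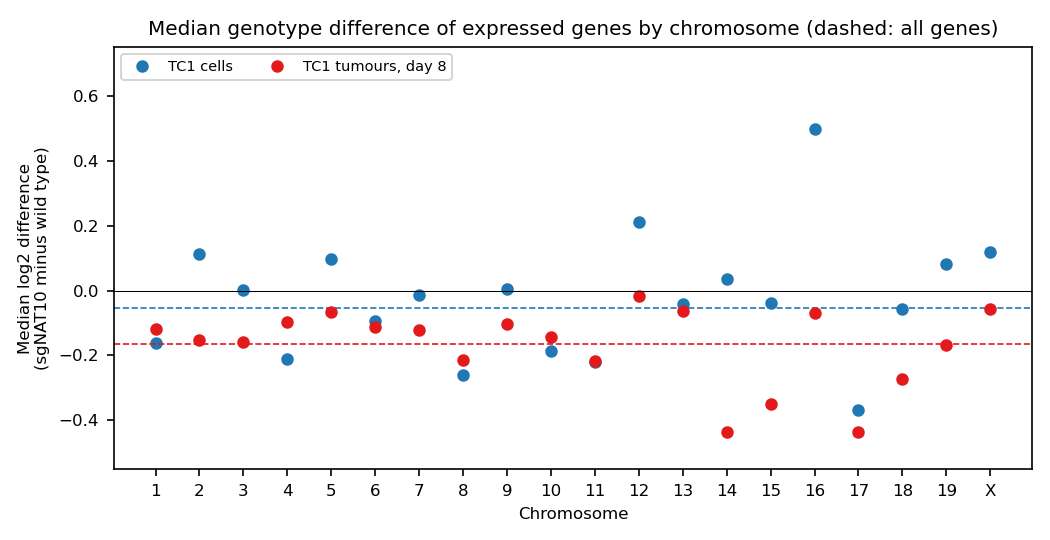
Median log2 difference between sgNAT10 and wild type of the genes of each chromosome with at least 100 expressed genes, in TC1 cells (blue) and day 8 tumours (red), with dashed lines at the medians of all 8877 genes. Chromosome 16 is at 0.50 in culture and -0.07 in tumours, chromosome 17 is low in both, and chromosomes 14 and 15 are low in tumours.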

How the data were processed

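The 12 TC1 libraries came from a table of cultures and a table of tumours, each with estimated counts and FPKM per transcript, as deposited by the authors and per the file headers. Columns headed KO were taken as sgNAT10. No source used here names the program that made the values, and the submitters' processing notes name mm10, FastQC, Trim Galore, Bowtie2 and featureCounts without roles. Deposited estimated counts are whole numbers that equal FPKM times transcript length and 1 factor per library after rounding, so they may not be direct tallies of reads. They were summed per gene, as was FPKM. Counts below a minimum were removed with filterByExpr, libraries were scaled by TMM, and the quasi-likelihood test of edgeR 4.0.16 in R 4.3.3 was run on 6 libraries for each genotype effect and on 12 for the interaction, with Benjamini-Hochberg adjustment and a threshold of 0.05. Log2 differences come from these fits, with SE the absolute difference over the root of F. The steps were tested on simulated data. DESeq2 1.42.0, limma 3.58.1, other scalings, filters and left-out libraries were alternatives. Differences between cultures and tumours in level were set across tables that the authors made separately, and 3329 genes of the interaction fit were outside the classes. Levels are given in FPKM. Members, gene lists and the rule for named genes were chosen with earlier results of these data known. That rule took the guide's target and the genes of the study's title, the 5 kept, lost and reversed genes in each direction and the 4 gained genes in each direction with the largest differences (symbols of known genes, at least 5 FPKM in the higher group of every setting in which the class needs a call, genotypes not overlapping), and from each pathway list up to 3 members with the smallest interaction p, of which a selection is printed. No pair of libraries of a group agreed within sampling noise, so none were merged, which does not show that they are separate cultures or animals. Promoters are from RefSeq.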

Additional observations from a re-analysis of the deposited data

Results flagged for a closer look

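The genotype effect differed between tumours and cultures, by the interaction test of edgeR, for 67 of the 77 genes named by the rule or chosen with it. Of these 34 had an interaction below 0, so that the sgNAT10 minus wild-type difference was lower in tumours, and 33 had one above 0. The log2 interactions under -3 were Acsl6 -8.90, Prkar1b -7.78, Phlda2 -7.29, Zbtb7c -7.24, Tro -6.50, Plagl1 -6.35, Tusc1 -5.56, Dbf4 -5.43, Mgat3 -4.84, Sulf2 -4.65, Sri -4.37, Mtss1 -4.04, Abcb1b -3.94, Prss22 -3.64, Nme4 -3.42, Nrn1 -3.19, Gtse1 -3.14 and Hspa1b -3.13. Those between -3 and 0 were Rtp4 -2.96, Crabp2 -2.82, Ifih1 -2.61, Ifi27 -2.50, Cd276 -2.50, Mcm4 -2.23, E2f8 -2.21, Phlda3 -1.94, Plk1 -1.92, Uhrf1 -1.90, Galnt18 -1.84, Tk1 -1.75, Kif11 -1.72, Mdm2 -1.71, Ttk -1.68 and Hells -1.47. On the other side, the log2 interactions of 3 and over were Dppa4 11.59, Car6 8.16, Bmp5 7.77, Ptx3 7.59, Thbs2 7.45, Cdh26 7.24, Il1rl1 7.18, Crabp1 6.80, Bgn 6.68, Col1a2 5.76, Col5a2 5.10, Aldh1a1 5.05, Slit2 4.99, Tnnt3 4.90, Adm 4.87, Atp2a1 4.57, Car9 4.50, Capn6 4.47, Gbp4 4.44, Trib3 3.62 and Slc16a3 3.17. Those between 0 and 3 were Pcdh18 2.83, Ddit3 2.65, Insl6 2.64, Gpnmb 2.58, Gas1 2.25, Msln 1.85, Slc7a5 1.37, Psmb9 1.37, Lss 1.37, Nlrc5 1.28, Mvd 0.99 and Cdk2 0.62. Dppa4 was listed at 0 in all 3 sgNAT10 cultures, so its fitted interaction depends on the prior count and is no bound. The tumour libraries of Phlda2 were all under 1 FPKM, with 2 of 3 sgNAT10 tumours at 0, so its interaction depends on the prior count too. Since the rule took genes with large differences, these sizes describe the genes that were chosen. Sri, Dbf4 and Abcb1b were chosen after their values were seen. Odc1, Ldha and Gadd45a, also taken by the rule and described above, are not counted among the 77.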

How the results depend on the processing

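The numbers of lost genes stayed within 1.5 times their values under every alternative tried, whereas those of kept, reversed and gained genes did not. For the lost genes this is partly built in, since kept and reversed genes can become lost when fewer are called in tumours. With 1 library left out in turn, calls ranged from 5264 to 8123 in culture, 555 to 4612 in tumours and 4337 to 6086 in the interaction. Kept genes ranged from 27 to 334 (up) and 89 to 793 (down), reversed genes from 96 to 528 (up to down) and 46 to 312 (down to up), and gained genes from 76 to 701 (up) and 112 to 779 (down). The lowest tumour count was without sgNAT10 tumour 2 and the highest without wild-type tumour 3. Scaling by total count gave 355 kept down and 383 gained down. Without a filter there were 2152 tumour calls, 119 kept up, 279 kept down and 143 reversed down to up. DESeq2 gave 5090 tumour calls, 444 kept up, 721 reversed up to down, 452 reversed down to up and 699 gained up. limma-trend gave 372 kept down and 407 gained down with a pseudocount of 1, and 355 and 394 with 0.1. voom with quality weights gave 5915 tumour calls, 516 kept up, 1232 kept down, 760 reversed up to down, 570 reversed down to up and 639 gained up. A single fit over 12 libraries gave 346 kept up, 397 reversed down to up, 618 gained up and 1001 gained down. The causes were not tested.

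Same-numbered wild-type and sgNAT10 libraries had correlations of -0.07 to 0.01 in their deviations from group means, and differently numbered ones -0.07 to 0.06. The replicate numbers thus gave no sign of a pairing, though such correlations cannot exclude one. With the replicate number as a block there were 836 tumour calls, 32 kept up, 122 kept down, 112 reversed up to down, 61 reversed down to up, 113 gained up and 204 gained down. Total-count scaling moved the median of all genes from 0.01 to 0.13 in tumours and from 0.02 to 0.16 in the interaction, and 56.3% instead of 46.5% of interaction calls were then higher. Of the 67 genes with a called interaction, 61 were called under every alternative that tested them and none changed sign. Among genes without a call, the interaction of Nat10, -0.07, became 0.074 with total-count scaling, 0.031 with the stricter filter, 0.13 and 0.14 with limma-trend, 0.043 with voom, 0.069 without culture 1 of both genotypes (chosen after seeing the data) and -0.15 to 0.11 with a library left out. That of Trim12a, -0.18, became 0.45 and 0.0054 with limma-trend and ranged from -0.78 to 0.18 with a library left out, and that of Trim30d, 0.22, became -0.78 without culture 1 of both genotypes and ranged from -0.48 to 0.70.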
